A study of Rattus norvegicus with 6 samples.

Results

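The pentose phosphate pathway branches off glycolysis at glucose 6-phosphate. Its oxidative branch makes NADPH and ribulose 5-phosphate, and its non-oxidative branch interconverts sugar phosphates between ribose 5-phosphate and the glycolytic intermediates. NADPH is the electron donor for glutathione and thioredoxin reduction and for lipid synthesis, and ribose 5-phosphate is a precursor of nucleotides. Tigar is a phosphatase that breaks down fructose 2,6-bisphosphate, an activator of glycolysis, and it is known in other cells as a product of a p53-regulated gene that favours flow into the pentose phosphate pathway. The 7 genes described here, out of 18930 in the deposited count table, were taken by gene symbol. They are Tigar, the oxidative-branch genes Pgls and Pgd, and the non-oxidative-branch genes Rpia, Rpe, Tkt and Taldo1. Not every enzyme of the pathway was analysed here.

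RNA was sequenced from NRK-52E cells, an established epithelial line from rat kidney, of wild-type genotype. The Control group held 3 samples of vehicle-treated cells, and the STZ group held 3 samples of cells kept for 24 h with 10 mM of STZ (streptozotocin), a nitrosourea joined to glucosamine that alkylates DNA. The Control libraries held 10430924, 10902792 and 12737131 counts (replicates 1, 2 and 3), and the STZ libraries 13921413, 11658253 and 15191349 counts. The sources do not say whether replicates were separate cultures, so p-values measure only the spread between these samples, which may be technical.

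Levels are given as normalized CPM, the reads of a gene per 1000000 reads of the sample in the genes tested, with that total adjusted by the TMM factor of edgeR. For the comparison of the groups, the quasi-likelihood test of edgeR was run on the 11870 genes that passed a filter on low counts, with adjustment over all of them by the Benjamini-Hochberg method. A gene is called higher or lower at an adjusted p under 0.05. All 7 genes passed the filter. Tigar, Tkt and Pgd were higher in STZ-treated cells, Rpia, Pgls and Taldo1 were lower, and Rpe did not pass the threshold. Thus 3 of 7 genes were higher, against 25.9% of all genes tested, and 3 of 7 were lower, against 25.1%. In either direction the count was 6 of 7, against 50.9% of all genes tested. In those 6 genes the groups did not overlap, which held for 56.3% of all genes tested. The lower count was 2 without Control replicate 1, STZ replicate 1 or STZ replicate 3. The median log2 fold change of the 7 genes was 0.10, and that of all genes tested was -0.0055. The median of the 7 genes was 0.07 without Control replicate 1 and 0.16 without Control replicate 3. The pathway genes analysed here therefore did not share 1 direction at the RNA level, with Tkt and Pgd higher and Rpia, Pgls and Taldo1 lower. Of the 7 genes, the 2 with the widest changes were the pathway gene Rpia and Tigar, which is not a pathway enzyme. These 2 moved in opposite directions.

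The additional threshold of an absolute log2 fold change over 1 was passed by 3.37% of all genes tested and by 0 of the 7 genes in edgeR, DESeq2 and limma-voom. At an unadjusted p under 0.05 in edgeR, 6 of the 7 genes passed, against 55.9% of all genes tested, and 0 of them also passed that fold-change threshold, against 3.38%. The absolute log2 fold change of Rpia exceeded that of 94.9% of the genes tested, and that of Tigar exceeded 88.5%. The corresponding shares were 58.5% for Pgls, 48.9% for Tkt, 37.1% for Pgd, 32.6% for Taldo1 and 29.4% for Rpe. Apart from Rpia and Tigar, the changes were thus of a size common in these cells.

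**Figure D1:**
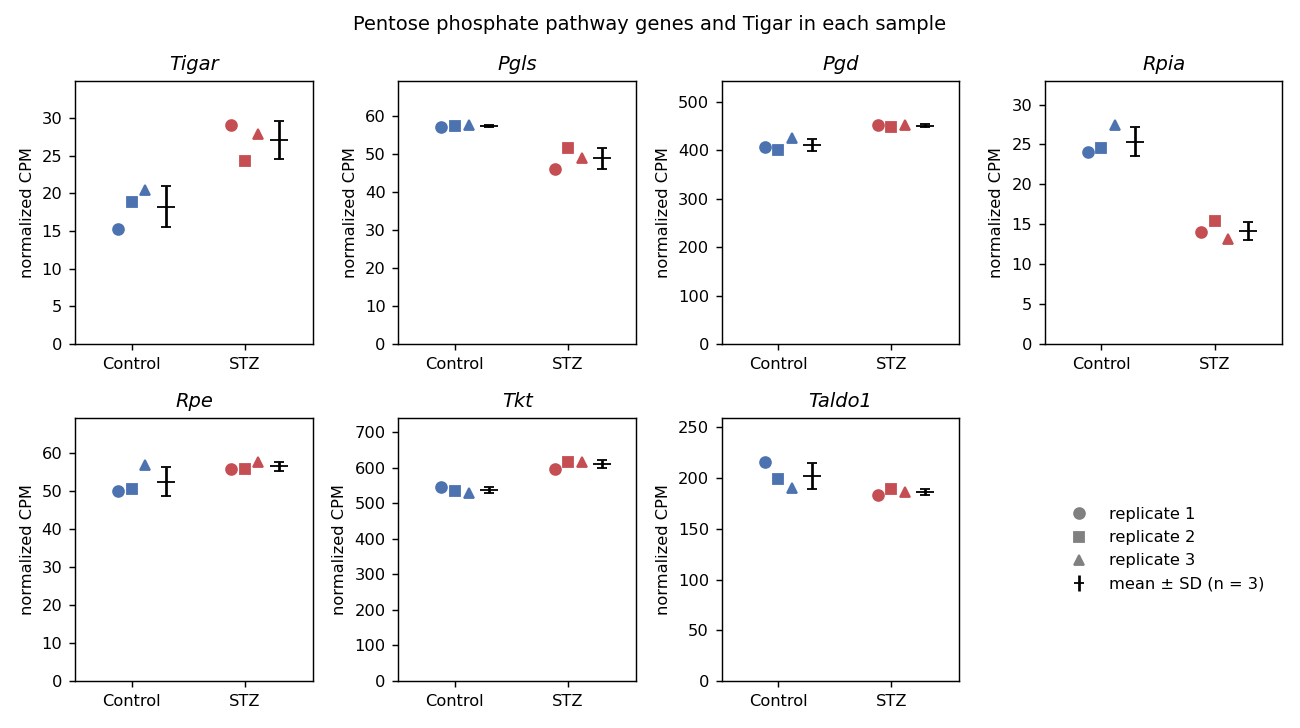
Normalized CPM of Tigar and the 6 pathway genes in each sample (points, replicates 1 to 3), with the mean and SD of each group (bars, n = 3). Tigar, Pgd and Tkt were higher and Pgls, Rpia and Taldo1 lower in all 3 STZ samples than in all 3 Control samples, and Rpe overlapped.

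**Figure D2:**
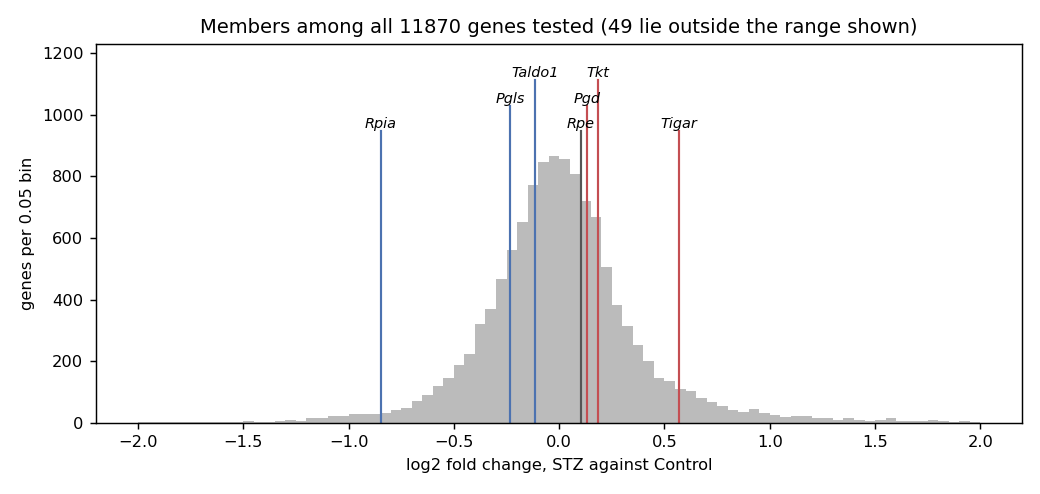
Distribution of the log2 fold change between STZ and Control over the 11870 genes tested, in bins of 0.05, with the pathway genes and Tigar marked by lines (red higher, blue lower, grey not past the threshold). Rpia at -0.85 and Tigar at 0.57 lie in the tails, and the other 5 genes lie between -0.23 and 0.19.

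Tigar was measured at 15.3, 18.9 and 20.5 CPM in Control replicates 1, 2 and 3, and at 29.1, 24.2 and 27.9 CPM in STZ replicates 1, 2 and 3. The lowest STZ sample, replicate 2, was above the highest Control sample, replicate 3. The mean was 18.2 ± 2.68 CPM in Control (SD, n = 3) and 27.1 ± 2.52 CPM in STZ (SD, n = 3). The log2 fold change was 0.57 (standard error, SE, 0.09, adjusted p = 1.3e-06, quasi-likelihood test of edgeR with Benjamini-Hochberg adjustment), a 1.48-fold rise with a 95% interval of 1.30 to 1.68. Tigar rested on 162 to 418 reads per sample, and its coefficient of variation in Control was 14.7%, beyond the 6.88% that counting error alone would give at its mean count. With each sample left out in turn and under the other alternatives, its log2 fold change stayed between 0.46 and 0.67. In bulk RNA, a change in which cells are present and a change in RNA per cell cannot be told apart, for this gene and for those that follow.

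The promoter windows of Tigar and Rpia, the genes that moved furthest upward and downward, are shown to let their base content be compared. The table of RefSeq promoters (assembly GRCr8, 300 bases around 1 annotated start per gene) held 6 of the 7 genes, all but Pgls. Capitals mark the CCAAT box (CCAAT, or ATTGG where it lies on the other strand) and the GC box (GGGCGG). The Tigar window lies at chr4:161632180-161632479 and the Rpia window at chr4:104307669-104307968, both on the minus strand.
Tigar: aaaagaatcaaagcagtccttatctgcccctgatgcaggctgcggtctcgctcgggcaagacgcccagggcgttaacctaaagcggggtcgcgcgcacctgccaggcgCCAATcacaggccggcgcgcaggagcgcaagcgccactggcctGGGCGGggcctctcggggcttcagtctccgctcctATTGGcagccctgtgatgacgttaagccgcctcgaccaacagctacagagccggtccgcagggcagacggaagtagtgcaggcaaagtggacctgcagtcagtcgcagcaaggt
Rpia: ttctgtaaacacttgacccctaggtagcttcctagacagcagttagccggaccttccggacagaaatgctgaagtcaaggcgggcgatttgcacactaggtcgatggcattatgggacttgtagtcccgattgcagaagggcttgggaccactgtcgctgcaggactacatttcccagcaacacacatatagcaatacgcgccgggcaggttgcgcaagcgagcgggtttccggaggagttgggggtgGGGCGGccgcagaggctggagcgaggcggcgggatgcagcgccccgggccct
Both windows were rich in G and C, at 64% in Tigar and 60% in Rpia, with 25 and 21 CG dinucleotides. The Tigar window held 2 CCAAT boxes and 1 GC box, and the Rpia window held no CCAAT box and 1 GC box.

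Across the 6 windows, motifs were searched on both strands. The core of the antioxidant response element (TGACNNNGC) matched in 0 of the 6 windows, and 12.1% of the 33469 promoters in the table and 14.7% of the 9759 promoters of genes tested held it. The p53 consensus decamer also matched in 0 of the 6, Tigar included, against 7.98% of all promoters and 6.39% of those of genes tested. These absences say only that the letters are not in these windows. The CCAAT box and the GC box were searched after the genes' values were seen. A CCAAT box was present in the windows of Tigar, Pgd, Rpe and Taldo1, against 37.5% of all promoters, or 37.9% of the promoters of genes tested. A GC box was present in those of Tigar, Pgd, Rpia, Rpe and Taldo1, against 33.1% of all promoters and 62.9% of the promoters of genes tested. The Tkt window held none of the 4 motifs, but the start it was taken from lies inside the annotated span of the gene, not at its beginning. The starts used for Rpe, Tigar and Rpia also lie inside the annotated spans, but their windows reach past the beginnings of the genes. No overlap between matches of different motifs was seen in these windows.

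In the oxidative branch, the groups of both genes separated, in opposite directions. Pgls encodes 6-phosphogluconolactonase, which opens the lactone made by the preceding step. Its levels were 57.0, 57.4 and 57.6 CPM in Control replicates 1, 2 and 3, and 46.2, 51.6 and 48.8 CPM in STZ replicates 1, 2 and 3. All STZ samples were below all Control samples, with a log2 fold change of -0.23 (SE 0.06, adjusted p = 7.4e-04, quasi-likelihood test of edgeR with Benjamini-Hochberg adjustment). The 3 Control samples varied by 0.519%, less than the 3.90% that counting error alone would give, so the spread of these 3 values understates the error of Pgls. In the GRCr8 annotation Pgls overlaps Slc27a1, a fatty acid transporter gene, and because it is not known whether counting used the strand, reads of the pair may be mixed. Slc27a1 had a log2 fold change of -0.10 (SE 0.07, adjusted p = 0.27, quasi-likelihood test of edgeR) and did not pass the threshold.

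Pgd encodes 6-phosphogluconate dehydrogenase, the NADPH-forming enzyme that gives ribulose 5-phosphate. Its levels were 407, 401 and 426 CPM in Control replicates 1, 2 and 3, and 452, 449 and 453 CPM in STZ replicates 1, 2 and 3. All STZ samples were above all Control samples. The log2 fold change of Pgd was 0.13 (SE 0.04, adjusted p = 0.0022, quasi-likelihood test of edgeR with Benjamini-Hochberg adjustment), which is a rise of 9.62% on 4318 to 6785 reads per sample. The coefficient of variation of Pgd was 3.16% in Control, above the counting error of 1.45%, and 0.512% in STZ, below the counting error of 1.28%, so the spread of the 3 STZ values understates the error.

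In the non-oxidative branch, the pair of enzymes that act on ribulose 5-phosphate differed in their response. Rpia encodes ribose 5-phosphate isomerase, which makes ribose 5-phosphate, and had the widest change of the 7 genes. It was measured at 24.0, 24.6 and 27.4 CPM in Control replicates 1, 2 and 3, and at 14.1, 15.4 and 13.1 CPM in STZ replicates 1, 2 and 3. Every STZ sample was well below every Control sample. The mean was 25.3 ± 1.84 CPM in Control (SD, n = 3) and 14.2 ± 1.12 CPM in STZ (SD, n = 3). The log2 fold change of Rpia was -0.85 (SE 0.09, adjusted p = 1.4e-10, quasi-likelihood test of edgeR with Benjamini-Hochberg adjustment), which leaves 0.556 of the Control level with a 95% interval of 0.490 to 0.631. It rested on 177 to 352 reads per sample, and its coefficients of variation, 7.25% in Control and 7.89% in STZ, were close to the counting errors of 5.85% and 7.27%. The log2 fold change stayed between -0.90 and -0.78 under the alternatives.

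Rpe encodes ribulose phosphate 3-epimerase, which makes xylulose 5-phosphate from the same substrate. It was measured at 49.9, 50.5 and 56.8 CPM in Control replicates 1, 2 and 3, and at 55.8, 55.7 and 57.6 CPM in STZ replicates 1, 2 and 3. Control replicate 3 lay among the STZ samples, so the groups overlapped. The log2 fold change of Rpe was 0.10 (SE 0.06, adjusted p = 0.14, quasi-likelihood test of edgeR with Benjamini-Hochberg adjustment), with a 95% interval of the fold from 0.990 to 1.17. Without Control replicate 3 it was 0.17 and passed the threshold (adjusted p = 0.025 from the same edgeR test, which ranged from 0.025 to 0.40 over the alternatives). Rpe overlaps Kansl1l in the GRCr8 annotation, and Kansl1l had a log2 fold change of -0.17 (SE 0.09, adjusted p = 0.11, quasi-likelihood test of edgeR).

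Transketolase (Tkt) and transaldolase (Taldo1) move carbon units between the sugar phosphates, and their transcripts separated in opposite directions. Tkt was measured at 546, 533 and 530 CPM in Control replicates 1, 2 and 3, and at 597, 615 and 617 CPM in STZ replicates 1, 2 and 3. All STZ samples were above all Control samples. Its log2 fold change was 0.19 (SE 0.04, adjusted p = 2.5e-05, quasi-likelihood test of edgeR with Benjamini-Hochberg adjustment), a rise of 13.7% on 5795 to 9250 reads per sample. Taldo1 was measured at 216, 199 and 191 CPM in Control replicates 1, 2 and 3, and at 184, 190 and 186 CPM in STZ replicates 1, 2 and 3. Its groups did not overlap, but Control replicate 3 and STZ replicate 2 nearly met and Control replicate 1 stood highest. The log2 fold change of Taldo1 was -0.11 (SE 0.04, adjusted p = 0.024, quasi-likelihood test of edgeR with Benjamini-Hochberg adjustment). This call depended on single libraries, since the adjusted p from the edgeR test was 0.25 without Control replicate 1, 0.10 without STZ replicate 1 and 0.073 without STZ replicate 3. Without Control replicate 1 the log2 fold change of Taldo1 was -0.06. In DESeq2's Wald test its adjusted p was 0.052, and over the alternatives it ranged from 0.0024 to 0.25.

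Ratios of read counts within a sample do not depend on how libraries are scaled. The pairs were chosen after the values were seen, from genes that differed in their change, so the ratios restate the values above on a scale without library factors and are no further test. The size of a ratio also reflects transcript length, so only its change between groups is read. The ratio of Rpe to Rpia reads was 2.07, 2.06 and 2.07 in the Control samples (replicates 1, 2 and 3), against 3.96, 3.62 and 4.39 in the STZ samples. Every STZ sample was above every Control sample, with a 1.93-fold rise of the mean. The Control ratios lay closer together than the counting errors of Rpe (4.07%) and Rpia (5.85%) would give, so their spread understates the error. The ratio of Pgd to Pgls reads was 7.18 ± 0.203 in Control (SD, n = 3) and 9.25 ± 0.555 in STZ (SD, n = 3), a 1.29-fold rise. The ratio of Tkt to Taldo1 reads was 2.66 ± 0.129 in Control (SD, n = 3) and 3.27 ± 0.0407 in STZ (SD, n = 3), a 1.23-fold rise. An exact two-sided permutation test of 3 samples against 3 cannot give a p under 0.1, and none is given for these chosen pairs. The ratio of Tigar to Pgls reads rose 1.75-fold, from 0.318 ± 0.0452 in Control to 0.557 ± 0.0810 in STZ (SD, n = 3 each). Pgls itself was lower in STZ. Against Tkt, which was higher, the ratio of Tigar reads rose 1.31-fold. There the groups nearly met, at 0.0387 in Control replicate 3 and 0.0394 in STZ replicate 2.

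**Figure D3:**
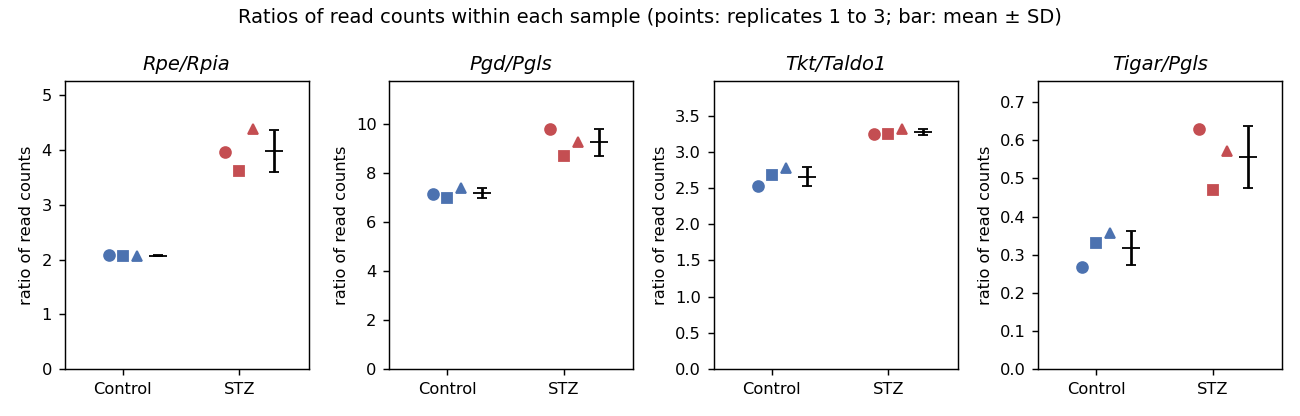
Ratios of read counts within each sample for Rpe to Rpia, Pgd to Pgls, Tkt to Taldo1 and Tigar to Pgls (points, replicates 1 to 3), with the mean and SD of each group (bars, n = 3). In each pair the 3 STZ samples lie above the 3 Control samples, and the Control samples of Rpe to Rpia lie at 2.06 to 2.07.

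Other genes that feed, drain or extend the pathway had changes in both directions. Of a list of 18 such genes, 13 were tested, 4 were higher, 4 were lower and 5 did not pass the threshold, with a median log2 fold change of -0.03. The shares over all genes tested were 25.9% higher and 25.1% lower. When libraries were scaled by library size only or by the upper quartile, 6 genes of the list were lower. Dera, the deoxyribose phosphate aldolase gene, was higher, from 59.0 ± 4.74 to 77.5 ± 1.11 CPM (SD, n = 3 each), with a log2 fold change of 0.40 (SE 0.05, adjusted p = 7.1e-08, quasi-likelihood test of edgeR). The other 3 higher genes encode sugar kinases and had mean levels under 5 CPM in both groups. Their log2 fold changes were 0.74 for the gluconokinase gene Idnk, 0.61 for the ribokinase gene Rbks and 0.59 for the sedoheptulokinase gene Shpk. The value of Idnk was 1.14 without Control replicate 2 and 0.51 without Control replicate 3. Each of these 3 calls was lost under an alternative, since the adjusted p was 0.058 for Idnk in edgeR without Control replicate 3, 0.092 for Shpk in edgeR without STZ replicate 1, and 0.055 for Rbks and 0.069 for Shpk in DESeq2's Wald test. Over the alternatives the adjusted p (edgeR, DESeq2 and limma-voom) ranged from 1.7e-04 to 0.058 for Idnk, from 0.0028 to 0.055 for Rbks and from 0.0047 to 0.092 for Shpk.

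Among the lower genes, H6pd, which encodes the oxidative-branch enzyme of the endoplasmic reticulum, had 76.9 ± 0.534 CPM in Control and 54.0 ± 3.46 CPM in STZ (SD, n = 3 each). Its log2 fold change was -0.51 (SE 0.05, adjusted p = 1.1e-10, quasi-likelihood test of edgeR with Benjamini-Hochberg adjustment). Prps2, a phosphoribosyl pyrophosphate synthetase gene that acts on ribose 5-phosphate, had a log2 fold change of -0.34 (SE 0.06, adjusted p = 1.9e-05, quasi-likelihood test of edgeR). Gpi, the glucose phosphate isomerase gene at the branch point with glycolysis, went from 712 ± 3.41 to 597 ± 9.28 CPM (SD, n = 3 each), a log2 fold change of -0.25. That of Pgm2l1, which encodes glucose 1,6-bisphosphate synthase, was -0.42.

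Tigar acts on fructose 2,6-bisphosphate, and 9 genes whose enzymes make, break or respond to this compound were listed, of which 7 were tested. Of these, 1 was higher, 3 were lower and 3 did not pass the threshold, with a median log2 fold change of -0.11. This median is the value of Pfkfb1, which depended on single libraries, as given below. That 4 of the 7 passed in either direction is near the 50.9% of all genes tested. Pfkfb4, a bifunctional enzyme gene, went from 11.2 ± 0.561 CPM in Control to 5.90 ± 0.232 CPM in STZ (SD, n = 3 each), a log2 fold change of -0.92 (SE 0.13, adjusted p = 1.1e-07, quasi-likelihood test of edgeR). Pfkfb3, the form best known for making the compound, was the gene that was higher, with a log2 fold change of 0.24 (SE 0.06, adjusted p = 9.9e-04, quasi-likelihood test of edgeR). The ratio of Pfkfb3 to Pfkfb4 reads, a pair chosen after the values were seen because the genes moved in opposite directions, was 3.78 to 4.23 in the Control samples and 8.83 to 9.11 in the STZ samples. The phosphofructokinase genes Pfkl and Pfkm, whose enzymes the compound activates, had log2 fold changes of -0.56 (SE 0.05) and -0.28 (SE 0.04). Values for the 3 genes that did not pass were -0.11 for Pfkfb1, -0.07 for Pfkfb2 and 0.22 for Fbp2. The log2 fold change of Pfkfb1 was -0.02 without Control replicate 1 and -0.06 without STZ replicate 3. That of Fbp2 was 0.14 without Control replicate 2 or STZ replicate 2, and 0.33 without STZ replicate 3. Without STZ replicate 1 the number of higher genes was 2, the added gene being Pfkp, which had 5 to 21 reads per sample and did not pass the filter on low counts with all samples.

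Genes listed with the other sources and users of NADPH likewise had changes in both directions. Of 22 listed, 19 were tested, 7 were higher, 7 were lower and 5 did not pass the threshold, with a median log2 fold change of -0.08. Of all genes tested, 25.9% were higher and 25.1% lower. Nqo1, a quinone reductase gene, had the smallest p of the list and went from 520 ± 14.0 to 1297 ± 123 CPM (SD, n = 3 each), a log2 fold change of 1.32 (SE 0.04, adjusted p = 4.4e-27, quasi-likelihood test of edgeR). The higher genes also included the cytosolic thioredoxin reductase gene Txnrd1 at 0.31, the cytochrome P450 reductase gene Por at 0.28 and the malic enzyme gene Me1 at 0.21 on the log2 scale. Among the NADPH-forming enzymes, Idh1, the cytosolic isocitrate dehydrogenase gene, was lower, from 136 ± 5.12 to 91.6 ± 1.99 CPM (SD, n = 3 each), a log2 fold change of -0.57 (SE 0.05, adjusted p = 5.5e-14, quasi-likelihood test of edgeR). The mitochondrial folate genes Mthfd1l and Mthfd2 had log2 fold changes of -0.96 and -0.42. They are in the list but are not counted here among the NADPH-forming enzymes. The mitochondrial thioredoxin reductase gene Txnrd2 had -0.61. Me1 and Pgd were thus higher while Idh1 and H6pd were lower, so these genes of NADPH-forming enzymes did not share a direction.

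**Figure D4:**
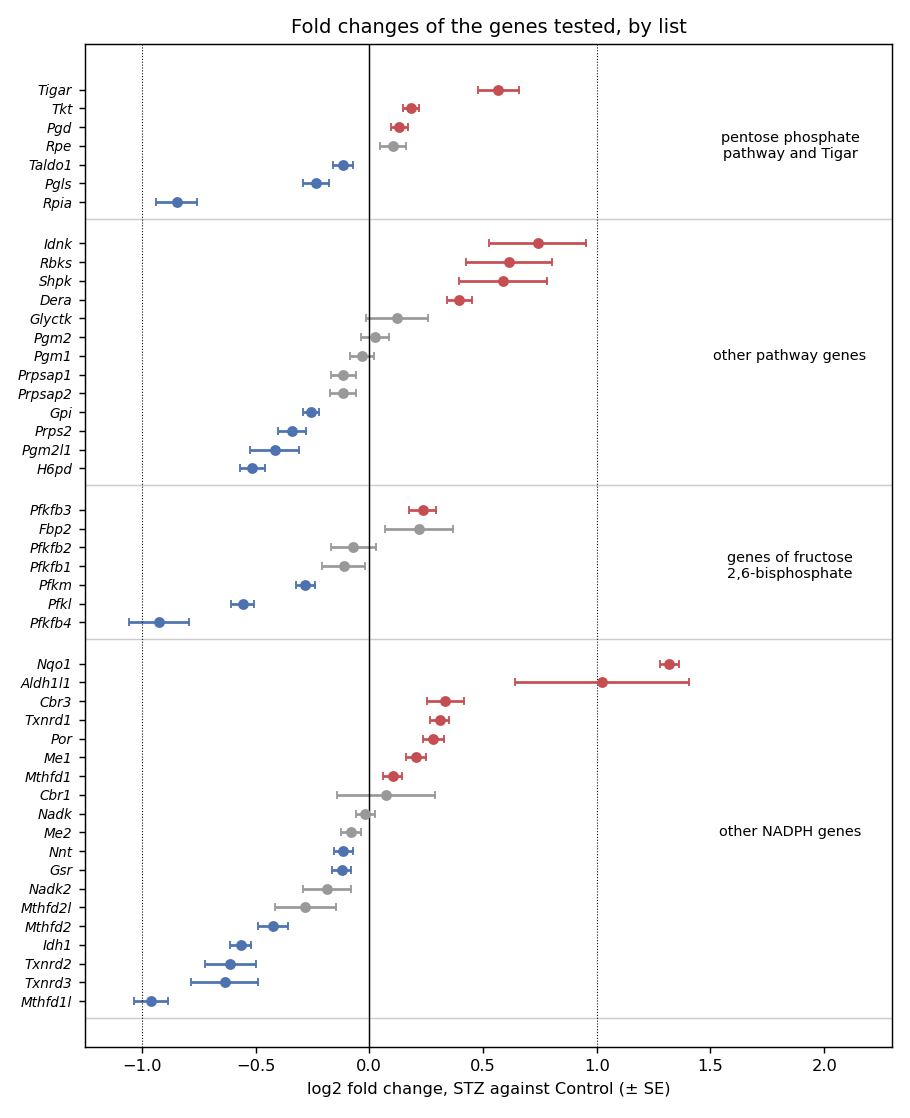
Log2 fold change between STZ and Control with its standard error for every gene tested in the 4 lists (red higher, blue lower, grey not past an adjusted p of 0.05; dotted lines at -1 and 1). Each list has genes on both sides of 0, with 3 higher and 3 lower among the 7 pathway and Tigar genes, 4 and 4 of 13 other pathway genes, 1 and 3 of 7 fructose 2,6-bisphosphate genes, and 7 and 7 of 19 other NADPH genes.

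Tigar was set beside 20 genes known as p53 targets. Of these 20, 16 were higher, 1 was lower and 3 did not pass the threshold, with a median log2 fold change of 1.17. Of all genes tested, 25.9% were higher and 25.1% lower. The study also examined p53 targets in these samples, so the direction of the list is no independent evidence. Tigar, at 0.57, rose less than 15 of the 16 higher genes, among them Cdkn1a at 2.49, Mdm2 at 1.95 and Sesn2 at 1.30 on the log2 scale. The differences between Tigar and these genes were not tested.

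Genes next to Tigar, Rpia, Rpe, Tkt and Taldo1 in the GRCr8 annotation had changes of both signs, and those flanking Pgls and Pgd were not tested or not analysed here. The neighbour of Tigar on 1 side is Ccnd2, the cyclin D2 gene, which went from 243 to 454 CPM, a log2 fold change of 0.90 (SE 0.04, adjusted p = 4e-23, quasi-likelihood test of edgeR). Eif2ak3, next to Rpia, had a log2 fold change of 0.21 (SE 0.07), opposite in sign to Rpia. Next to Taldo1, Eps8l2 had a log2 fold change of 0.35 and Gatd1 had -0.30, and next to Tkt, Prkcd had 0.35 and Dcp1a, which did not pass the threshold, had -0.05. Acadl, next to Rpe, had 0.52. The RefSeq annotation also lists pseudogenes of Tigar, Pgd, Tkt and Taldo1. The authors counted uniquely mapped reads, so reads that match a gene and its copy equally would be missing from these counts, and the values of these 4 genes are uncertain to that extent.

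For each gene, the 3 other genes with the closest profile over the 6 samples were found by the Euclidean distance between log2 CPM profiles centred on their means. For Rpia these were Fasn (distance 0.098, log2 fold change -0.81), Acly (distance 0.104, log2 fold change -0.78) and Dhcr7 (distance 0.115, log2 fold change -0.86), which encode fatty acid synthase, ATP citrate lyase and a sterol reductase. Those closest to Tigar were Gpm6a, Rab21 and Dusp6, at distances of 0.157, 0.166 and 0.175. Tkt lay closest to Rexo4, Gtf2b and Atic, at distances of 0.0356, 0.0356 and 0.0374. The profiles closest to Pgd were Hmgxb3, Mfsd11 and Arpc4, those closest to Pgls were Polq, Fkbp4 and Vegfb, those closest to Rpe were Tctn2, Strn3 and Coro1c, and those closest to Taldo1 were Spryd3, Washc1 and Fut10. The distance covers both the difference between the groups and the spread within them.

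Markers were checked against the label of a kidney epithelial cell. Among epithelial markers, Krt8 was measured at 1149 ± 40.7 CPM in Control and 1604 ± 8.05 CPM in STZ (SD, n = 3 each), and Cdh1 at 2.58 and 1.64 CPM. Krt18 and Pax8 had at most 10 reads in every sample. Of 5 markers of the mature proximal tubule, Lrp2, Cubn, Slc34a1 and Slc5a2 likewise had at most 10 reads in every sample, while Aqp1 went from 13.1 to 5.43 CPM. Most defining markers of the mature tubule were thus near 0. Summed over 4 fibroblast markers, levels were 50.9, 47.1 and 52.4 CPM in Control replicates 1, 2 and 3 and 43.7, 42.9 and 36.8 CPM in STZ replicates 1, 2 and 3, with Col1a1 (30.3 CPM in Control and 25.4 in STZ) the most abundant, then Pdgfrb (19.6 and 15.6 CPM), and with Col1a2 and Pdgfra at or near 0. The part of these marker shifts in the changes of the pathway genes was not tested. Sums over 3 endothelial and 3 blood cell markers stayed under 1 CPM and under 3 CPM in every sample.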

How the data were processed

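Per the labels, total RNA was made into stranded mRNA libraries. The authors aligned reads with STAR 2.7.10a to rat assembly Rnor6 and deposited raw counts of uniquely mapped reads per gene from featureCounts; the strand setting is not given in the sources used here. Columns were assigned to groups by their labels. Of 18930 rows, 422 share a name with another row, and each row was tested as deposited.

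Counts were scaled by TMM (factors 0.988 to 1.02), filtered with filterByExpr and tested with the quasi-likelihood test of edgeR 4.0.16 (R 4.3.3). P-values were adjusted over 11870 genes by the Benjamini-Hochberg method. Standard errors are the size of the log2 fold change over the root of the F statistic, and 95% intervals use them. Scripts were tested on simulated data. Alternatives covered filters, scalings, DESeq2 1.42.0, limma-voom (limma 3.58.1), glmTreat, a replicate block, and fits without 1 sample. Profiles used log2(CPM + 0.5).

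The members and lists were chosen with earlier results of these data known. Named were the 7 genes, at most the 8 smallest p of each list, markers, genomic neighbours and the 3 closest profiles. Levels of the 7 genes were not compared with each other, since no transcript lengths were used here, and markers are ranked by CPM without regard to length.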

Additional observations from a re-analysis of the deposited data

How the results depend on the processing

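Over 16 alternatives for each of the 7 genes, 107 of 112 refits kept the direction and the side of the threshold, 4 lost the call, 1 gained it and 0 reversed; the 5 that changed concern Taldo1 and Rpe, and the cause was not tested. For the other named genes of the lists, 492 of 496 refits kept both and 4 lost the call. The 400 genes past both thresholds numbered 249 when every sample had to have 10 or more counts, where fewer genes were tested, 112 with glmTreat, which tests against the fold change itself, 585 with no filter and 565 with at least 0.5 CPM in 1 sample. Other pathway genes higher in STZ numbered 2 instead of 4 under DESeq2, and those lower 6 instead of 4 with library size only or the upper quartile. With each sample left out in turn, fructose 2,6-bisphosphate genes higher in STZ numbered 1 to 2. The median log2 fold change of all genes was -0.0055, -0.04 with library size only and -0.02 with the upper quartile.

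With the replicate number as a block, 398 genes passed both thresholds. At the adjusted p alone, 3139 genes were higher and 3060 lower with the block, against 3070 and 2976 without it. Deviations of same-numbered samples correlated at 0.0464, -0.0357 and 0.0806 across genes, and not every sample correlated best with its own number. With so few samples per group, these values cannot decide whether the replicate numbers pair the samples.

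Among the 7 genes, depth limits Rpia and Tigar most, with counting errors of 5.23% to 7.27%. Some genes named from the other lists rest on fewer reads, among them Idnk, Rbks, Shpk, Fbp2, Pfkfb4, Txnrd2, Pgm2l1 and Pfkfb2. Levels per transcript length were planned and not run.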
